A study of Drosophila melanogaster with 2 samples.

Results

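Distal intronic peaks of the fly protein CG11247 were the peaks whose summit lay inside a protein-coding transcript, in no exon of such a transcript and more than 3000 bp from the nearest protein-coding transcription start site (TSS). There were 715 of them among the 4476 peaks that passed on the chromosome arms 2L, 2R, 3L, 3R, 4 and X, out of 4495 in the whole list. The peaks come from chromatin immunoprecipitation and sequencing (ChIP-seq) of whole Drosophila melanogaster embryos aged 0 to 24 h, of a strain with a transgene for CG11247 joined to eGFP, precipitated through the GFP. One group of 2 biological replicates was made from separate biosamples of the same strain, with no other genotype, treatment or stage beside it. The sources used here do not give the promoter that drives the fusion, all tissues of the embryo were read at once, and the control experiment was not analysed here. The irreproducible discovery rate (IDR) scores how well the rank of a peak repeats, and a peak is called passing here when it is in the authors' thresholded list of the pooled replicates, in which the distal intronic peaks had a −log10 IDR of 2 or more. Ranked peaks that did not pass served as the background. Peaks are not replicates, and no difference between kinds of peak was tested, so shares are given with Wilson 95% intervals that cover counting error only, and with the values of both replicates.

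CG11247 carries C2H2 zinc fingers, a fold that many DNA-binding proteins use to read a short sequence. In flies, introns far from any promoter are where many enhancers lie, the elements that set where and when a developmental gene is expressed, and the longest introns belong to genes of development and of the nervous system. Insulator proteins such as CTCF also bind within introns, while the elements of housekeeping promoters, among them the DNA replication-related element (DRE) bound by Dref and BEAF-32, are known from the starts of widely expressed genes. The sets of bases below show AT-rich summits and some of the few summits with a CTCF site.

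The strongest distal intronic summits were mostly poor in G and C. The bases within 50 bp of the summit are shown for 8 of the strongest peaks, on the plus strand of dm6, as read from the RefSeq copy of release 6. These are not the 8 strongest, as the peaks in Hr3 (563), Btk (562.4) and sbb (511.9) are not shown. Capitals mark any of 10 words of 8 bases that were raised the most at summits outside the distal introns, 9 of them made of A and T alone, such as ATATTTTA and ATTTTAAA, read on either strand.
CG32486, chr3L:3060756-3060856: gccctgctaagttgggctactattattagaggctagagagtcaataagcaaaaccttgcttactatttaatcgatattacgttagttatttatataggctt
osa, chr3R:17704358-17704458: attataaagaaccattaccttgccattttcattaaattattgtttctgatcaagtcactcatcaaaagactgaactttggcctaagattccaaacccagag
osa, chr3R:17700524-17700624: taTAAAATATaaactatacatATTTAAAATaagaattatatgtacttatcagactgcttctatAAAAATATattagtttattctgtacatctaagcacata
CG34417, chrX:6549829-6549929: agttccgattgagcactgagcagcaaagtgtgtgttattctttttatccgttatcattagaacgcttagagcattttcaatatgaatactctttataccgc
Raf, chrX:2300637-2300737: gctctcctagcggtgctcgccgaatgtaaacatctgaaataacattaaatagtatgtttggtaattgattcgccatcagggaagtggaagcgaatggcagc
Gug, chr3L:8458269-8458369: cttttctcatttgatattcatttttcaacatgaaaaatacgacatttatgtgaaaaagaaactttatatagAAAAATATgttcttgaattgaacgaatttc
mnb, chrX:17880415-17880515: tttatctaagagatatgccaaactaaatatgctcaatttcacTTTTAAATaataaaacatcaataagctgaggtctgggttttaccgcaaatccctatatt
Tis11, chrX:12666565-12666665: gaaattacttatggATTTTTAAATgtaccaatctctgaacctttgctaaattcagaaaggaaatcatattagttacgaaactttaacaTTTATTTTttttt
The words were in 4 of these 8 windows, with 4 matches each in the weaker osa window and in Tis11, and CG32486, which held the strongest peak, had none. GC content ran from 18.8% in the weaker osa window to 44.6% in Raf.

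A small share of the summits held the site of the insulator protein CTCF, AGRKGGCGC, where R is A or G and K is G or T. It was present on either strand within 100 bp of 20 distal intronic summits, or 2.80%. The capitals mark it, or its reverse complement, in 4 of these windows, again within 50 bp of the summit on the plus strand of dm6.
RapGAP1, chr2L:7535075-7535175: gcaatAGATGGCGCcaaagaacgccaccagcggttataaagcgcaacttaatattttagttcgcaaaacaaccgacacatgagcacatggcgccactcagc
Hr4, chrX:1953074-1953174: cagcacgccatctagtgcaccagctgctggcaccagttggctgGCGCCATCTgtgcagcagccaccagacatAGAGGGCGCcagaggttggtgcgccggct
CG43980, chr3L:21652943-21653043: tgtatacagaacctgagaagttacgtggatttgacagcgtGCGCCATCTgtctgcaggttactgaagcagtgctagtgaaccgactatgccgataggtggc
Antp, chr3R:6912372-6912472: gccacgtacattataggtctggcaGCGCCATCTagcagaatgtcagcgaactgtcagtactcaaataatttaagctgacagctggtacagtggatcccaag
The Hr4 window held the site once on each strand, and its GC content was 65.3%. The other 3 windows lay between 47.5 and 50.5%.

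Fewer of the ranked summits in distal introns passed than of ranked summits as a whole. Of 34235 ranked distal intronic summits, 715 passed, or 2.09% (1.94 to 2.25%), against 3.33% of all 134262 ranked summits on the arms. Promoter summits, within 500 bp of a TSS, passed at 11.7%, introns nearer to a TSS at 5.03% and distal intergenic summits at 1.69%. Each replicate's own lists gave the same order for distal introns and all summits, with 1.72% against 2.78% in replicate 1 and 1.15% against 2.17% in replicate 2. As a share of all passing summits, distal introns made up 15.97% (14.9 to 17.1%), against 25.8% of the ranked summits that did not pass. The share was 15.7% in replicate 1, with 470 peaks, and 13.3% in replicate 2, with 356 peaks (mean 14.5 ± 1.68%, SD, n = 2), so the gap to 25.8% was larger than the spread between the replicates.

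The distal intronic peaks were of middling strength. Peak signal, which the authors' caller gives each peak as a score, had a median of 111.9 with quartiles of 86.1 and 159.9 and a range of 2.12 to 998.7. The median was 136.8 at promoters, 124.2 in introns nearer to a TSS and 105.7 in distal intergenic sequence. All 31 distal intronic peaks with a signal under 40 overlapped a stronger passing peak, so the low end of the range was made of second summits of the same places.

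Both replicates passed at 276 of the 715 peaks, or 38.6% (35.1 to 42.2%). The stricter conservative list of the authors held 578 of them, or 80.8%. Replicate 1 alone passed at 161, replicate 2 alone at 69, and neither at 209, or 29.2%, whose call rests on the pooled reads. At promoters 53.9% passed in both replicates, in introns nearer to a TSS 45.5% and in distal intergenic sequence 36.7%. Of the 179 distal intronic peaks with the highest signal, from 160 upwards, 171 (95.5%) passed in both replicates. The next 179 had 91 (50.8%), the 178 after them 6 (3.37%) and the weakest 179 had 8 (4.47%), so nearly all of the peaks that passed in both lay above the median signal. Across the 708 peaks with a ranked peak in each replicate, the signals of the replicates had a Spearman's rho of 0.586, against 0.737 across promoter peaks. Peaks share their libraries, so this is a description.

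**Figure D1:**
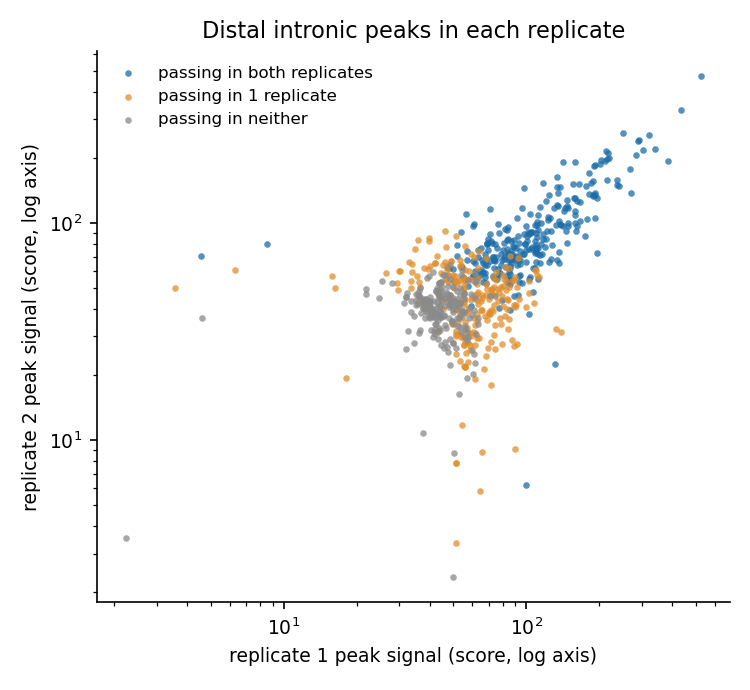
Peak signal (a score, log axes) of each distal intronic peak in the ranked list of replicate 1 (x) and replicate 2 (y), coloured by whether it passed in both replicates, in 1 or in neither. The 276 peaks that passed in both fill the upper right, and CG32486 stands at the top with 526 and 475.7.

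The strongest distal intronic peak lay in the first intron of CG32486 on 3L (3060663 to 3060927), an intron of 12037 bp. Its pooled signal was 998.7, which ranked 44 of the passing peaks, and its signal was 526 in replicate 1 and 475.7 in replicate 2. Both replicates placed it among their first 45 ranked peaks. The next 2 peaks shared intron 4 of osa, which encodes an ARID subunit of the Brahma chromatin remodelling complex. They had pooled signals of 747.3 (433.2 and 332.8 in replicates 1 and 2) and 576.5 (385.3 and 192.4). All of the 20 strongest distal intronic peaks passed in both replicates. Of these, 18 had the higher signal in replicate 1, with sbb and EcR as the exceptions, but each list has its own scale of signal, so this does not compare the amount of binding.

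Nuclear receptor genes hosted 3 of the 20 strongest peaks, beside 29 of all 715 in the list of ecdysone response and nuclear receptor genes. Hr3, a nuclear receptor gene that the moulting hormone ecdysone induces, had a peak of 563 (339.8 and 219.7), and EcR, the ecdysone receptor gene, one of 431.2 (213.2 and 214.3). The summit in Hr3 also lay in introns of CG12912 and CG46321. Hr4, another nuclear receptor gene of this cascade, had one of 406.2 (210.7 and 193.6), 22001 bp from any TSS. The replicate scores of EcR and Hr4 were close in value, though each list has its own scale of signal.

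Co-regulators and chromatin proteins followed. Gug, which encodes the co-repressor Atrophin, had a peak of 527.2 (303.9 and 217.4), and sbb, which encodes the co-repressor Scribbler, also called Brakeless, one of 511.9 (251.8 and 259.3). The peak of simj, a gene of a NuRD complex subunit, had 435.4 (271.4 and 137.9), and that of mam, the gene of the Notch co-activator Mastermind, 398.3 (241.8 and 148.6). CHES-1-like, a forkhead factor gene, had 403.3 (204.2 and 195.4). The replicate scores of sbb and CHES-1-like were close in value, and those of simj and mam the farthest apart. Each list has its own scale of signal, so this does not measure how well the replicates match.

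Kinase and signalling genes were also among the 20. Btk, a Tec family tyrosine kinase gene, had a peak of 562.4 (322.3 and 254.5), and Raf, the gene of the kinase below Ras, one of 536.8 (293 and 240.8). The peak of mnb, which encodes the DYRK family kinase Minibrain, had 494.3 (283 and 205.2). In aos, the gene of the secreted EGF receptor inhibitor Argos, the peak of 396.4 (237.5 and 156.8) was 3074 bp from the TSS and also in an intron of CG33158. Tis11, which encodes a zinc finger protein that destabilises mRNAs with AU-rich elements, had peaks of 446.3 and 408.6 in the same intron, Dys, the dystrophin gene, one of 419 in intron 15, and CG34417 and CG9328 had 538.5 and 428.2.

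Several host genes held a series of peaks. The 715 peaks lay in 431 genes, of 1908 genes with a ranked distal intronic summit, and 22 of them lay in more than 1 gene. One peak was found in 265 of these genes, 2 peaks in 89 and 3 or more in 77. These counts include the 34 peaks that overlapped a stronger passing peak. Some genes, such as twin with 2 peaks, thus held second summits of the same place rather than separate peaks. Among neighbouring peaks on an arm, 65 of 710 pairs were within 1000 bp of each other and 167 within 5000 bp, where the median gap was 64902 bp. The close pairs also include second summits, and the spacing of ranked summits is not given beside them.

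The co-repressor gene sbb had 10 peaks of 62 ranked summits, or 16.1% (9.004 to 27.2%), all in its first intron of 49364 bp and over 27551 bp. The 4 strongest had signals of 511.9, 388.6, 346.5 and 282.1, and 5 of the 10 passed in both replicates. One of the 10, of signal 12.3, overlapped a stronger peak. As many peaks lay in kirre, the gene of an immunoglobulin family protein of myoblast fusion, but of 309 ranked summits, or 3.24% (1.77 to 5.85%). The interval of kirre held the 2.09% over all distal introns, and that of sbb lay above it. Genes here and below were chosen for their number of peaks, so their passing shares are a description only. Those in kirre were weak, from 75.2 to 145.1, and 1 of the 10 passed in both replicates. So sbb and kirre had equal numbers of peaks and differed in strength and in how many ranked summits passed.

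Raf had 8 peaks of 26 ranked summits (30.8%, 16.5 to 49.99%), all in 1 intron of 43637 bp, with signals from 6.59 to 536.8, the lowest of which overlapped a stronger peak. Hr4 had 6 of 57 (10.5%), from 122.2 to 406.2, and 5 of these passed in both replicates. Pdp1, a bZIP factor gene, had 6 of 23 (26.1%), of which 5 did not overlap a stronger peak, and Snoo, a gene of the Ski and Sno family of Smad co-repressors, had 6 of 109 (5.51%). With 5 peaks each followed 9 genes, of which those with the highest summed signal were CG12535, gpp, the gene of the histone H3 methyltransferase Dot1, Zdhhc8, which encodes a palmitoyltransferase, and msn, a Ste20 family kinase gene. All 5 peaks of msn passed in both replicates, of which 1 of signal 6.49 overlapped a stronger one, while gpp, CG12535 and Zdhhc8 had 2 of 5.

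Host genes of distal intronic peaks had a passing promoter summit in 140 of 410 cases with a ranked promoter summit, or 34.1% (29.7 to 38.9%). The share was 26.6% (24.3 to 29.0%) among genes with ranked distal intronic summits but no peak, and 23.7% among all 10966 such protein-coding genes. Host genes and genes without a peak differ in their number of ranked distal intronic summits, so both were also compared at like numbers. With 16 or more, the shares were 33.6% (28.0 to 39.7%) for hosts and 17.2% (13.5 to 21.8%) for the others, with intervals that did not overlap. With 6 to 15 they were 36.9% (28.5 to 46.2%) and 25% (20.8 to 29.8%), and with 1 to 5 they were 30.8% (19.9 to 44.3%) and 32.0% (28.5 to 35.6%), with intervals that overlapped in both cases. Of the 15 genes with 5 or more peaks, sbb, Pdp1, ftz-f1 and bun had a passing promoter summit.

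Passing was more frequent nearer to the TSS and in introns close to the 5′ end of the gene. From 3000 to 5000 bp, 3.03% of ranked summits passed (2.65 to 3.45%), and beyond 20000 bp 1.09% (0.883 to 1.35%). The share was 2.75% (2.46 to 3.07%) in first introns, 2.32% in introns number 2, 1.74% in introns number 3 and 1.03% (0.835 to 1.28%) in later introns. First introns held 308 of the 715 peaks and second introns 256. By intron length the share was low at both ends, at 1.64% (1.33 to 2.01%) up to 5000 bp and 1.22% (0.956 to 1.56%) beyond 50000 bp, with 2.21 to 2.56% in between. The median distance to a TSS was 7044 bp for the peaks and 9646 bp for ranked summits that did not pass. Signal and distance were weakly related across the 715 peaks, with a Spearman's rho of -0.10.

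**Figure D2:**
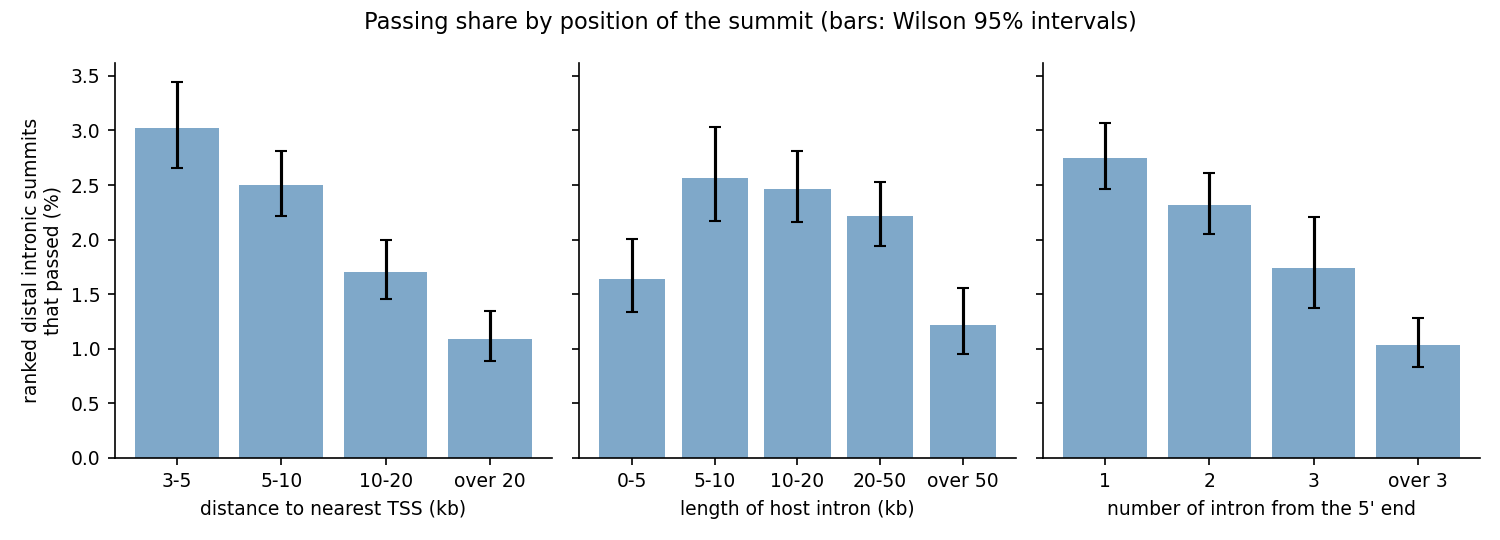
Percentage of ranked distal intronic summits that passed, by distance to the nearest TSS, length of the host intron and number of the intron from the 5′ end; error bars are Wilson 95% intervals. The bars step down with distance, from 3.03 to 1.09%, and with intron number, from 2.75 to 1.03%.

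Peaks on both sides of the limit of 3000 bp were of mixed strength. The nearest inside were in TkR86C, a tachykinin receptor gene (3001 bp, signal 91.3), tna (3010 bp, 81.95), FER, a tyrosine kinase gene (3023 bp, 82.1), and siz (3032 bp, 168.5). Just outside, and not counted, were peaks in shn (2992 bp, 87.6), Fur1 (2987 bp, 87.3), edl (2985 bp, 193.5) and upSET (2970 bp, 338.5). The farthest peak was in Myo81F on 3R, 745774 bp from a TSS, with a signal of 96.1, and it passed in replicate 2 but not in replicate 1.

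Introns of chromatin genes had the highest passing share of the 11 gene lists, and introns of neural genes were among the lowest. Chromatin and insulator protein genes had 11 passing of 151 ranked summits, or 7.28% (4.12 to 12.6%), beside 2.09% over all distal introns. The replicates gave 9.02% and 5.56%, beside 1.72% and 1.15% over all. These 11 lay in 6 genes, had a median signal of 219.6, and 8 passed in both replicates. The strongest were the 2 osa peaks and one of 334.3 (196.3 and 130.3) in Mi-2, the gene of the NuRD ATPase, which also lay in an intron of Su(Tpl). Without gpp, the gene with the most of them, 6 of 119 remained, or 5.04%.

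Signalling pathway genes had 50 of 1197 (4.18%, 3.18 to 5.46%), with Raf, aos and the Wnt receptor gene fz leading, the last at 313.9 (181.1 and 135.8). Genes of the ecdysone response and nuclear receptors had 29 of 722 (4.02%, 2.81 to 5.71%), spread over 11 genes. Developmental transcription factor genes had 69 of 2107 (3.27%, 2.60 to 4.12%) in 31 genes, led by 3 peaks of sbb. Each of these 3 lists passed above the share of all distal introns in both replicates, at 4.01% and 2.39% for signalling genes, 3.58% and 2.42% for ecdysone genes and 2.67% and 2.09% for the transcription factors. Segmentation and axis patterning genes had 12 of 252 (4.76%, 2.75 to 8.14%), with 3 that passed in both replicates, and 2.77% and 1.94% in the replicates. Their strongest peaks were in sog, the gene of a secreted BMP antagonist (245.3), dpp, the gene of the BMP ligand Decapentaplegic (182.4), and nkd, a gene of a Wnt antagonist (159.9). Without nkd, which held 4 of the 12, 8 of 204 passed, or 3.92% (2 to 7.55%). That interval held the 2.09% over all distal introns.

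Muscle genes had 8 of 286 (2.80%, 1.42 to 5.42%), with 4 of the peaks in Mef2, the gene of a muscle transcription factor, and Dys at the top. Without Mef2, 4 of 259 passed, or 1.54%. Cytoskeleton and cell shape genes had 19 of 797 (2.38%), led by the polarity gene scrib (175), by tara (162.3), whose product Taranis is a nuclear protein, and by the kinase gene aPKC (157.2). The intervals of both lists held the value for all distal introns.

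Axon guidance and cell adhesion genes had 47 of 3574 (1.31%, 0.990 to 1.74%), and 0.987% and 0.435% in the replicates, below the value over all distal introns in both. The adhesion genes ed (295.8) and Fas3 (208.7) and the motor axon guidance gene side (254) had their strongest peaks, and Fas3 had no ranked peak at that place in replicate 2. Ion channel and synapse genes had 16 of 1475 (1.08%, 0.669 to 1.75%), with Ih, a channel gene, at 253.7, dnc, a cAMP phosphodiesterase gene, at 178.1 and for, a cGMP-dependent kinase gene, at 167.1. RNA-binding protein genes had 16 of 1407 (1.14%, 0.701 to 1.84%), led by the translational repressor gene pum (187.4), how (157.2) and the splicing factor gene Rbfox1 (156.2). The 8 Hox genes had 3 of 269 (1.12%, 0.380 to 3.23%), all 3 in Antp, of which the strongest, of 160.4 (71.3 and 115.9), passed in both replicates. All 3 summits in Antp also lay in an intron of CG46458, and without Antp 0 of 192 passed. The lists differ in how long and how far from a TSS their introns are, and the part of this in the shares was not tested.

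**Figure D3:**
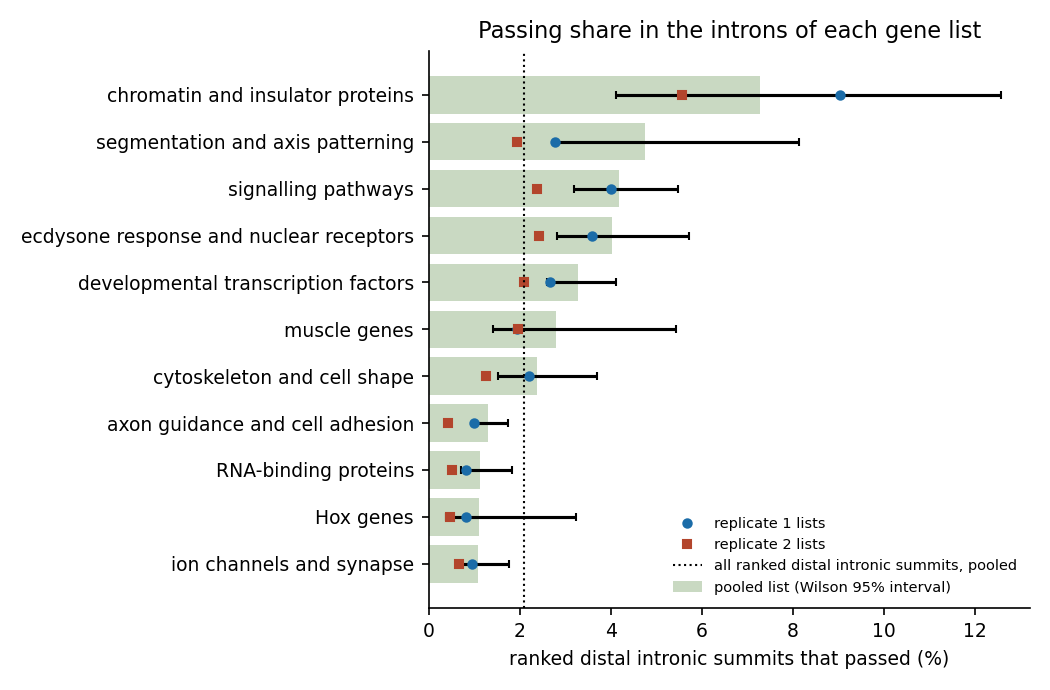
Percentage of ranked distal intronic summits that passed in the introns of each of 11 gene lists. Bars are the pooled lists with Wilson 95% intervals, circles replicate 1, squares replicate 2, and the dotted line is the 2.09% over all distal introns. Chromatin and insulator genes lie at 7.28% and ion channel genes at 1.08%.

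Arm X had the highest median signal. The passing shares of ranked distal intronic summits were 2.34% on 2L, 2.10% on 2R, 2.12% on 3L, 1.74% on 3R and 2.33% on X, and their intervals overlapped. The median signal was 129.1 on X and between 100.5 and 110.2 on the other arms. Of the 100 strongest peaks 30 were on X, against 156 of all 715. On arm 4, 0 peaks passed, with 1 ranked distal intronic summit.

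GC content dipped at the summit. It was 37.2% within 50 bp of the distal intronic summits, 3.57 percentage points below the windows centred 500 bp to each side, given as -3.57 ± 0.467 (SE over 715 summits). The replicates' own distal intronic peaks gave -6.29 and -4.62. Ranked distal intronic summits that did not pass had 45.5% and an offset of 4.19 ± 0.0572 (SE over 33514 summits), which is of the opposite sign. Promoter summits had -6.51, introns nearer to a TSS -4.98 and distal intergenic summits -0.309. Over all passing summits the offset was -3.80, so the dip was not particular to distal introns. At 140 bp to each side of the distal intronic summits, GC content was 44.3 and 44.1%, above both the centre and the flanks.

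The dip went with signal. In the same 4 groups from the highest signal to the lowest, the offsets were -7.97 ± 0.828, -6.47 ± 0.783, -1.75 ± 0.983 and 1.93 ± 0.946 (SE over summits). Peaks that passed in both replicates had -7.08 ± 0.667, and those that passed in neither had 1.31 ± 0.894. The weakest peaks thus had the sign of the summits that did not pass. They include the 31 peaks with a signal under 40, all of which overlapped a stronger peak, and the part of these in the offset was not tested. Across the 715 peaks, signal and GC content had a Spearman's rho of -0.36.

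**Figure D4:**
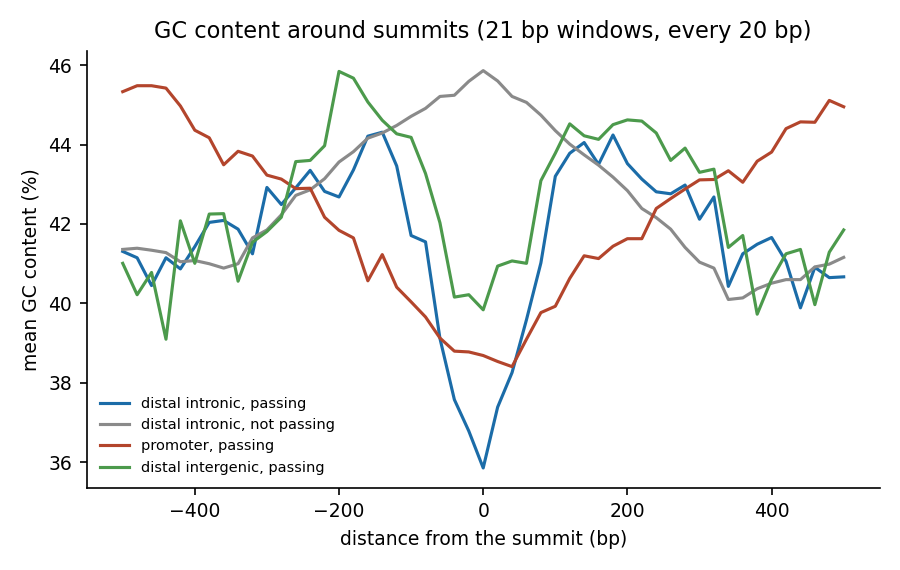
Mean GC content (%) against the distance from the summit (bp), in windows of 21 bp every 20 bp, for passing and not passing distal intronic summits, promoter summits and distal intergenic summits. At the centre the passing distal intronic summits are at 35.9% and those that did not pass at 45.9%.

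AT-rich words were found at distal intronic summits more often than beside them. At least 1 of the 10 words chosen on the other passing summits was within 50 bp of 182 summits, or 25.5% (22.4 to 28.8%), and in 18.8% (16.9 to 20.9%) of their flanking windows. Among ranked distal intronic summits that did not pass the share was 12.1%, below the 18.7% of their flanks, and among the other passing summits 30.02% against 15.9%. All 10 words were more frequent at the summits than in the flanks, but some only slightly. AATAAATA was in 3.78% of summits against 3.71% of flanks, and ATTTAAAA in 3.08% against 2.87%. ATATTTTA was in 4.62% against 1.47%, and ATTTTAAA in 4.90% against 2.17%. The word that holds G and C, ATCGATAG, which shares its core with the DRE, was in 2.69% of the other passing summits and in 1 distal intronic summit, or 0.140%.

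Words were also chosen on the 254 peaks of 2L and 2R and counted on the 461 of the other arms. All 10 words of 6 bases were more frequent at those summits than in their flanks, and 7 of 10 words of 8 bases. AAATAT was in 27.3% of summits against 18% of flanks, and CAATAG, the one with a G and a C in it, in 6.07% against 2.82%. AATATTAA was in 5.21% against 1.41%, and in 0.882% of summits that did not pass. GC content also differs between summits and flanks, and its part in these shares was not tested.

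The elements of housekeeping promoters were no more frequent at the distal intronic summits than beside them, beyond counting error, and less frequent than at promoter summits. The DRE, TATCGATA, was within 100 bp of 2 of 715 summits, or 0.280% (0.0767 to 1.01%), and in 0.350% of flanking windows, where 7.94% (6.85 to 9.18%) of promoter summits held it. GGTCACACT, the Motif 1 site of M1BP, was at 1 summit (0.140%), against 3.13% at promoters. The core of Motif 7, CAKCNCTR, with K for G or T, R for A or G and N for any base, was at 4.76% of summits, below the 6.01% of their flanks, and at 23.1% of promoter summits. The short BEAF-32 site CGATA, which the DRE contains, was at 145 of 715 summits (20.3%), in 286 of 1430 flanks and at 38.9% of promoter summits. Motif 6 was at 0 of 715, which allows a share of up to 0.420%.

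CTCF sites were at 20 distal intronic summits, or 2.80% (1.82 to 4.28%), in 0.979% (0.584 to 1.64%) of their flanks and in 0.582% (0.506 to 0.669%) of ranked distal intronic summits that did not pass. The replicates' own distal intronic peaks had 3.40% and 4.49%. The share was 6.15% in the 179 peaks of highest signal and 1.12% in the 179 of lowest. It was 2.26% at promoters, 2.3% in introns nearer to a TSS and 4.74% at distal intergenic summits. Over all passing summits outside the distal introns it was 3.38% (2.8 to 4.0%), so the site was not particular to distal introns. Within 50 bp it was 1.68% against 0.629% of the flanks. The 20 peaks had a median signal of 170.8, against 110.4 for the others, and 14 of them passed in both replicates.

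The strongest peak with a CTCF site was the EcR peak of 431.2, followed by RapGAP1, a gene of a Rap GTPase activator, with 341.6 (189.1 and 156.6). One of the 2 peaks with the site in Eip75B, an ecdysone-induced nuclear receptor gene, had 325.9 (142 and 190.7), and the one in Hr4 shown above had 307.5 (156.5 and 151.4). Jupiter, a gene of a microtubule-associated protein, had 317.3, Tet, the gene of a TET family dioxygenase, 263.4 and Amph, the amphiphysin gene, 244.7. The strongest Antp peak, of 160.4, held a site too. These peaks were chosen here after their values were seen.

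Among the other sites searched, a few were somewhat more frequent at the summits than in the flanks. The forkhead site TGTTTAC was at 58 summits, or 8.11% (6.33 to 10.3%), against 4.97% (3.96 to 6.22%) of flanks and 3.62% of summits that did not pass, with 6.81% and 9.83% in the replicates. It was at 6.70% of the 179 peaks of highest signal and at 8.38% of the 179 of lowest. One of its copies stands in the Raf window, as its reverse complement. The AP-1 site TGANTCA was at 6.71% (5.10 to 8.79%), against 5.03% (4.02 to 6.29%) and 3.63%. For the core of the Su(Hw) site, TGCATAYY with Y for C or T, the values were 5.59%, 3.92% and 4.13%, and for the TATA box, TATAAAWR with W for A or T, 12.6%, 10.8% and 6.50%. The intervals of summits and flanks overlapped for AP-1, Su(Hw) and the TATA box and did not for the forkhead site. At the other passing summits the forkhead, AP-1, Su(Hw) and TATA shares were 5.93%, 4.07%, 4.15% and 14.1%. In introns nearer to a TSS they were 6.5%, 5.28%, 4.33% and 13.9%. These intervals overlapped those of the distal intronic summits, except for AP-1 at the other passing summits. The GAGA site GAGAG was as frequent at the summits (24.2%) as in the flanks (23.4%) and at summits that did not pass (24.0%). The Caudal site TTTATGG was less frequent at the summits (4.34%, 3.07 to 6.09%) than in the flanks (6.99%, 5.78 to 8.43%), and CAGCTG, an E-box of basic helix-loop-helix factors, was at 7.97% and 8.74%. Of the 28 motifs searched, 12 had a higher share at the summits than in the flanks. The remaining motifs searched included the repeat GAGAGAGA bound by the GAGA factor, the repeat CACACACA, the Zelda site CAGGTAG and the Pho site GCCATNTT. Others were the E-box CACGTG, the Twist type E-box CATATG, the homeodomain site TAATTA, the Bicoid site GGATTA and the Grainyhead site AACCGGTT. The last were the Ets site CCGGAAG, the GATA factor site WGATAAG, the STAT site TTCCNGGAA, the Su(H) site GTGGGAA, the Tramtrack site AGGACCT and the Mef2 site. Their shares at the summits ran from 0.280% for Grainyhead to 13.3% for TAATTA. Of these remaining motifs, the Zelda, CATATG, STAT and Su(H) sites were above their flanks, with intervals that overlapped, and the others were below. TAATTA was in 15.9% of flanks, and GGATTA was at 3.22% of summits against 5.38% of flanks.

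**Figure D5:**
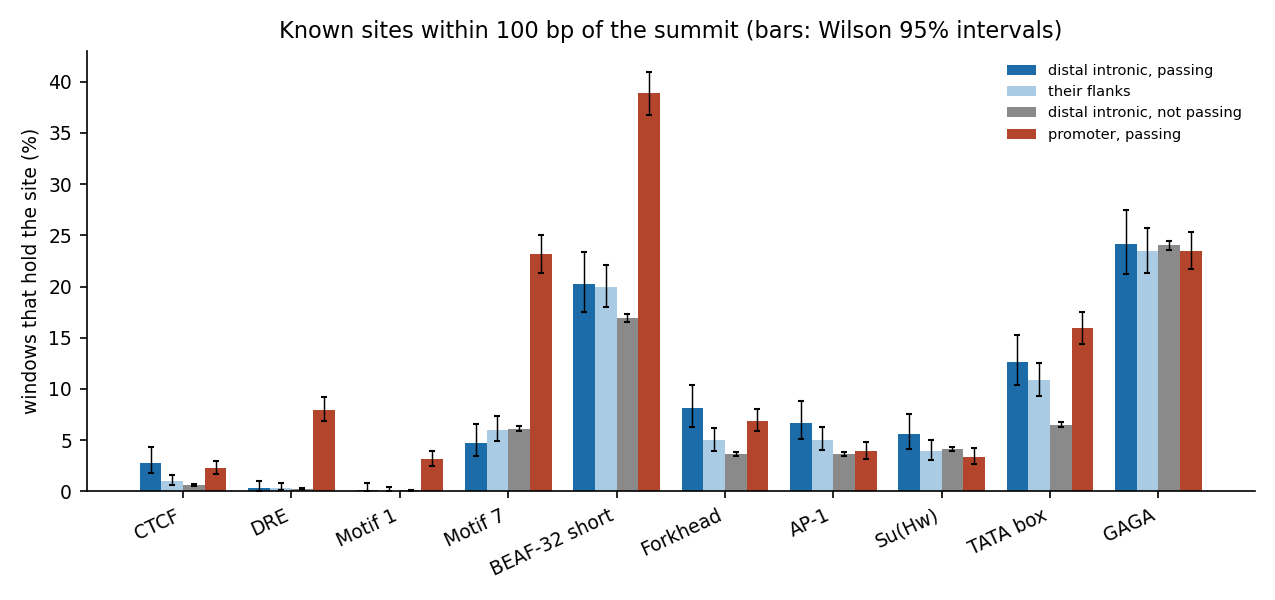
Percentage of windows within 100 bp of the summit that hold each of 10 known sites, for distal intronic summits, their flanks, distal intronic summits that did not pass and promoter summits; error bars are Wilson 95% intervals. The DRE and Motif 7 reach 7.94% and 23.1% at promoters, against 0.280% and 4.76% at distal intronic summits.

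Some of the peaks lay at the starts of noncoding genes, which the limit of 3000 bp does not count. A noncoding gene began within 500 bp of 22 of the 715 summits, or 3.08% (2.04 to 4.62%), against 1.26% (1.15 to 1.38%) of those that did not pass. The 22 include second summits that overlap a stronger peak at the same noncoding start, in sty (5.49), TfAP-2 (3.77) and puc (46.8). The strongest of the 22 was the second osa peak, 167 bp from lncRNA:CR46036. The next were the Tis11 peak of 408.6, at mir-9377 (409 bp), a beat-Ib peak of 255.6 (174.2 and 86.9) at lncRNA:CR44867, a CG17124 peak of 248 (97.8 and 145.3) at mir-9378 (173 bp) and a peak of 240.1 (133.2 and 97.7) in dlp, a glypican gene, at lncRNA:CR45888 (66 bp). The sixth was a second beat-Ib peak, of 204.4, 374 bp from lncRNA:CR44868, whose replicate signals were 132.1 and 22.5. All 6 overlapped a passing peak of each replicate. For the sixth, the signal of 22.5 is that of the ranked peak with the nearest summit in replicate 2. Whether that peak is the passing one was not checked.

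No peak lay in an annotated transposable element, 0 of 715, which allows a share of up to 0.420%, while 0.913% of the ranked distal intronic summits that did not pass did. CG11247 itself is the gene whose product was tagged, and 2 of the 715 peaks, or 0.280% (0.0767 to 1.01%), were within 50 kb of it. No share of ranked summits near it is given beside this, so the count is a description only.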

How the data were processed

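Peak lists of ChIP-seq against CG11247-eGFP in 2 embryo samples were used. Peak signal is a score that the authors' peak caller gave each peak, and the −log10 IDR of each ranked peak was computed by the authors, per the listing with the files, on assembly dm6. For the aligner and the peak caller, no name is given in the sources used here. Sonicated fragments were 200 to 800 bp long, per the labels. Read depth is unknown, and intervals cover counting error only.

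Summits were placed in transcripts of Ensembl release 115, and bases were read from the RefSeq copy of assembly release 6, whose arms hold all peak ends. A pooled peak was matched to each replicate by an overlap of at least 1 bp, and its signal there is that of the ranked peak with the nearest summit, so overlapping pooled peaks can share a value. Motifs were searched in windows of 100 bp, and words of 50 bp, to each side of the summit, on either strand, beside flanks centred 500 bp to each side. The limit for a count of 0 is 3 counts of the total. A gene hosts a peak when one of its protein-coding transcripts contains the summit. Genes were named by rank: the 20 strongest peaks, those nearest to the 3000 bp limit and the farthest, the 10 genes with the most peaks, the 3 strongest peaks per gene list and the 6 strongest at noncoding starts. Peaks with a CTCF site were named after their values were seen.

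The members, gene lists and motifs were chosen with earlier results of these data known. The scripts were tested on simulated data. Python 3.11.15 with numpy 2.4.6, pandas 2.3.3, scipy 1.17.1 and matplotlib 3.10.9 was used. The alternatives were the conservative list, the stronger 50% of peaks, each replicate alone, other distance limits, overlaps and windows, and, added after seeing the data, the alternatives for word and gene list shares and the return of peaks absent from the thresholded list. What else besides the IDR entered the thresholded lists is not described in the listing. The ranking of the true replicates, whose columns carry no sample names, was not used here.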

Additional observations from a re-analysis of the deposited data

Results flagged for a closer look

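In the ranked list of the pooled replicates, 13 distal intronic summits had a −log10 IDR of at least 2 and were absent from the thresholded list, so they are not among the 715 peaks and were counted with the summits that did not pass. They were flagged because their signal is not described with that of the peaks. Of these, 12 were on 3R and 1 on 3L, and over all classes 118 such summits were absent, 71 of them on 3R. The strongest was in trx, the gene of the Trithorax histone methyltransferase, with a signal of 697.3 (3R, 14283745 to 14284009), which would place it behind 2 of the 715 peaks. There were 6 in tara, with signals from 11.9 to 542.8, and 1 in Kdm2, a histone demethylase gene, with 319.3. The others were in jumu (193), drn (153.3), InR, the insulin receptor gene (105.6), nmo (89.6) and Pzl (81.97).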

How the results depend on the processing

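The stronger 50% of passing peaks held 316 distal intronic peaks, 14.1% of passing summits and 0.923% of ranked ones, with 79.7% passing in both replicates, a GC offset of -7.68 and a word in 32.6%. Single replicates gave 356 to 470 peaks, 13.3 to 15.7% of passing summits, 1.15 to 1.72% of ranked ones, GC offsets from -6.29 to -4.62 and a word in 25.6 to 29.6%. A limit of 2000 bp gave a share of 19.3% and 7 motifs above their flanks, against 12, and one of 5000 bp a share of 11.1% and 34.4% passing in both. That last share was 42.9% in the conservative list and 32.0% with a reciprocal overlap of 50%. The GC offset was -1.86 in windows of 100 bp to each side. The causes were not tested. The GC offset stayed negative in every alternative run, while single motifs crossed their flanks, such as CATATG in the stronger 50% (6.33% against 7.12%). Among values that answer a comparison, 38 others were counted as unmoved, and of the values for single motifs and lists 152 were and 133 moved. Other shares and GC offsets were held to the SD of the 2 replicates. The share passing in both replicates was held to its Wilson interval, and counts to a fixed ratio. That ratio was wide: 497 and 865 peaks counted as unmoved from 715, as did 8 motifs above their flanks from 12. With the 13 absent peaks the number was 728. Without gpp the chromatin list passed at 5.04%, without Mef2 the muscle list at 1.54%, and without Antp no Hox peak was left. No paired analysis was possible because there is 1 group. Unknown depth limits all counts, and the 209 peaks that passed in neither replicate rest on the pooled list alone.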
